A study of Homo sapiens with 4 samples.

Results

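The sites described here are stretches of RNA, 21 to 49 bases wide, at which both SAF-A pull-downs listed a peak and neither input did. Peaks of each pull-down that overlapped a peak of the other by at least 1 base on the same strand were merged, sites overlapping a same-strand input peak were removed, and the remaining sites were divided by width. Of 62968 merged sites 35889 were free of input peaks, and 5921 of these (16.5%) were of middle width. They were set against 7755 wide sites, of 50 bases or more, and 22213 narrow sites, of 20 bases or less, found by the same rule. The sites were chosen by measured values, namely peak width, overlap between the pull-downs and absence from the inputs, which are given below only as description.

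The libraries were 2 SAF-A pull-downs and 2 inputs (replicates 1 and 2 of each), all from HCT116, an established human colorectal carcinoma cell line, with no genotype change or treatment named in the labels. Cells had been crosslinked with ultraviolet light and their lysate treated with RNase A. One portion was kept as input and another was precipitated with a SAF-A antibody, and RNA of both was taken from the blot region spanning the weight of SAF-A and slightly heavier complexes. The pull-down lists held 96061 and 111256 peaks and the input lists 29386 and 42256. The labels do not say that replicates came from separate cultures, so the spread between them may be technical.

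SAF-A, also called hnRNP U, is an abundant nuclear protein that binds RNA through a glycine- and arginine-rich stretch and binds DNA through a separate domain. It is known for its association with chromatin and with newly made nuclear RNA. A crosslinking peak marks a stretch where RNA fragments bound to the protein pile up, and its width depends on fragment length and on how the contacts spread along the RNA as well as on the peak caller. The files' positions are 1-based here and taken as GRCh37, because 1214 of 278492 nuclear peaks end past a GRCh38 chromosome end and 0 past a GRCh37 end. No genome or annotation of that build was used here, so sites carry positions and no sequence, gene, exon or intron.

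Middle-width sites behaved as neither of the other classes throughout. On the same strand they clustered about as often as the wide sites within 10 kb and more often within 1 kb, an order not seen among the better-scoring peaks. On the opposite strand they had about as few neighbours within 10 kb as the narrow sites. Their density over 1 Mb regions followed that of the wide sites more than that of the narrow sites (Spearman's rho 0.343 and 0.121). Chromosome shares were divided between both classes, on several chromosomes by differences within counting error. In region tests on input-free peaks, those of middle width differed from narrow peaks more often than from wide peaks. That order turned when all pull-down peaks were counted. Within 21 to 49 bases the sites also changed. Same-strand clustering was near that of the widest narrow sites at the lower edge and near that of the shortest wide sites at the upper edge.

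The sites were short for their class. Their median width was 27 bases, with quartiles of 23 and 35 bases, against a median of 105 bases for wide sites and 13 for narrow sites. Of all middle-width sites 2251 (38.02%) joined 2 peaks that were each 21 to 49 bases wide, 3258 (55.0%) joined such a peak with a narrow one, and 412 (6.96%) joined 2 narrow peaks. The contributing peaks had a median width of 22 bases in pull-down replicate 1 and 23 bases in replicate 2. Among the 5917 sites made of 1 peak from each pull-down, 1877 (31.7%) were wider than either peak and the others were as wide as the wider one. A median of 63.6% of the site was covered by both peaks. That share was 34.8% for wide and 76.9% for narrow sites.

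The authors' peak score, a whole number of unstated meaning, had a median of 17 and 19 in pull-down replicates 1 and 2 for middle-width sites. It was 15 and 16 for wide sites and 17 and 18 for narrow sites. The middle-width class held most of the highest scores. A score of at least 100 in both pull-downs occurred at 69 middle-width, 12 wide and 18 narrow sites. Before inputs were considered, 12337 merged sites were of middle width, of which 48.0% were free of input peaks, against 61.0% of 12704 wide and 58.6% of 37927 narrow merged sites.

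Clustering was measured as the share of sites with another input-free site of any width on the same strand within a given gap between edges. All 3 classes were looked up in the same 35889 sites. Within 1 kb, 8.09% of middle-width sites (95% Wilson interval 7.42 to 8.81) had such a neighbour, against 5.48% of wide sites (5.00 to 6.01) and 2.36% of narrow sites (2.17 to 2.57). Within 10 kb the shares were 25.6% (24.5 to 26.7) for middle-width, 28.1% (27.1 to 29.1) for wide and 14.1% (13.7 to 14.6) for narrow sites. Middle-width sites therefore stood above both other classes at 1 kb and close to the wide class at 10 kb. With sites rebuilt from the better-scoring 50% of each list, the shares within 1 kb were 1.14% of middle-width, 1.17% of wide and 0.920% of narrow sites, so the excess was not seen there. Their median gap to the nearest same-strand site was 36.6 kb, against 31.4 kb for wide and 53.7 kb for narrow sites. The intervals cover counting error only, since neighbouring sites are not independent.

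Neighbours on the opposite strand did not follow this pattern. Within 10 kb, 11.7% of middle-width sites (10.9 to 12.6) had an opposite-strand site, against 14.3% of wide sites (13.6 to 15.1) and 11.02% of narrow sites (10.6 to 11.4). Within 1 kb the shares were 1.17%, 1.57% and 1.24% for middle-width, wide and narrow sites. An opposite-strand site that overlapped or lay within 50 bases was rare in every class, at 8 middle-width, 14 wide and 20 narrow sites. Each class lay evenly on both strands, with 50.5% of middle-width, 50.1% of wide and 49.48% of narrow sites on the plus strand.

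**Figure D1:**
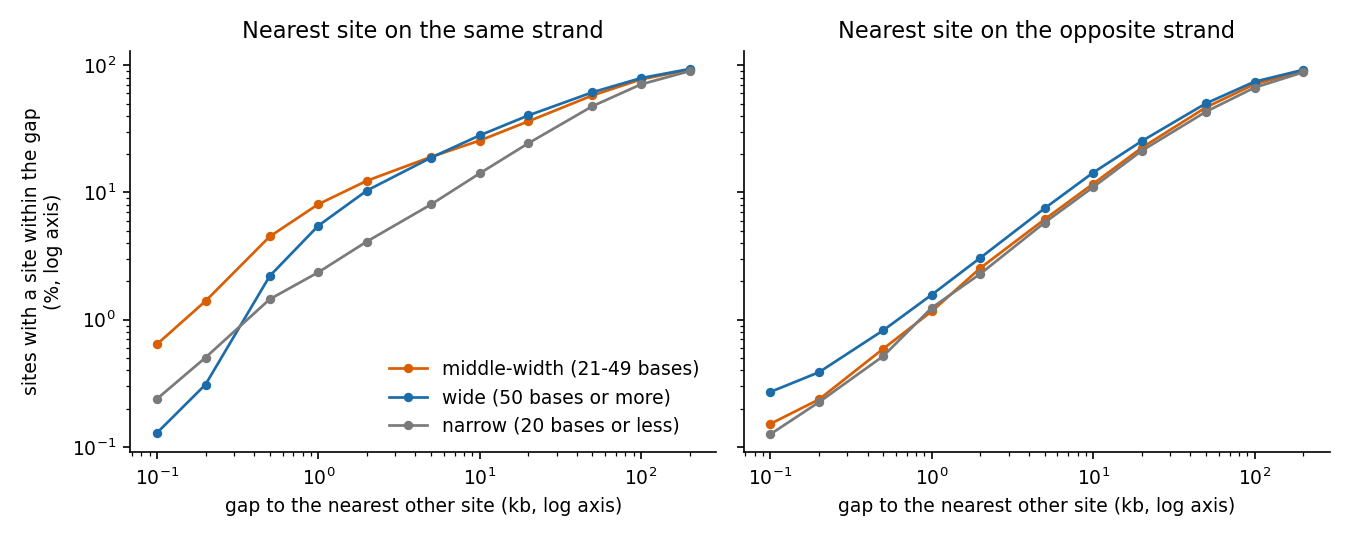
Share of sites in percent (vertical log axis) with another input-free site within a given gap in kb (horizontal log axis), on the same strand (left) and the opposite strand (right), for middle-width, wide and narrow sites. On the same strand the middle-width curve lies above both others at short gaps, with 8.09% at 1 kb against 5.48% and 2.36%, and near the wide curve at 10 kb; on the opposite strand it lies near the narrow curve up to 10 kb (11.7% against 11.02%) and between both others at 100 kb, with 71.0% against 74.2% of wide and 66.7% of narrow sites.

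Pairs of neighbours made the strand preference plain. Among all pairs of a middle-width site with an input-free site within 10 kb, 6433 were on the same strand and 777 on opposite strands, a same-strand share of 89.2%. The wide sites had 5712 same-strand and 1262 opposite-strand pairs (81.9%), and the narrow sites 6483 and 2793 (69.9%). Within 1 kb the same-strand share was 91.0% for middle-width, 81.1% for wide and 78.5% for narrow sites. Pairs in a dense stretch are counted many times, so these shares weigh the densest stretches most.

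The nearest same-strand neighbour within 1 kb was more often of the site's own width class than the make-up of the whole set. Of the 479 middle-width sites with such a neighbour, 42.0% had a middle-width, 30.3% a wide and 27.8% a narrow site nearest to them. Middle-width, wide and narrow sites made up 16.5%, 21.6% and 61.9% of all input-free sites. Wide sites rarely had a narrow site nearest to them (33 of 425), and narrow sites rarely a wide one (30 of 524). Middle-width sites were thus found beside both. Their neighbour lay at a median of 458 bases, against 591 bases for wide and 367 bases for narrow sites.

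Width resolved the class further. Sites of 18 to 20 bases, just outside the lower edge, had a same-strand site within 1 kb in 3.89% of cases, and sites of 21 to 23 bases, just inside, in 4.88%. At the upper edge the shares were 10.2% for 47 to 49 bases and 10.8% for 50 to 52 bases. The share rose between these edges to 15.6% (12.9 to 18.7) at 36 to 40 bases, the highest of all width bins, and fell again among wide sites to 1.503% (1.04 to 2.16) above 150 bases. The wide class is therefore itself mixed. Within 10 kb, 16.2% of sites of 18 to 20 bases, 17.7% of 21 to 23 bases, 34.7% of 47 to 49 bases and 38.2% of 50 to 52 bases had a same-strand site.

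Dividing the middle-width sites at 35 bases, a value chosen after these shares were seen, gave 4335 shorter and 1586 longer sites. Of the longer sites 13.9% (12.3 to 15.7) had a same-strand site within 1 kb and 37.6% (35.3 to 40.1) within 10 kb, against 5.97% (5.31 to 6.72) and 21.2% (20.0 to 22.4) of the shorter sites. For wide sites of 50 to 64 bases the values were 11.6% and 39.4%, and for those of 100 to 300 bases 2.50% and 21.5%. Opposite-strand sites within 10 kb were about as frequent for the longer as for the shorter middle-width sites, at 12.4% and 11.5%. The same-strand share of neighbour pairs within 10 kb was 93.1% for the longer and 86.2% for the shorter sites.

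**Figure D2:**
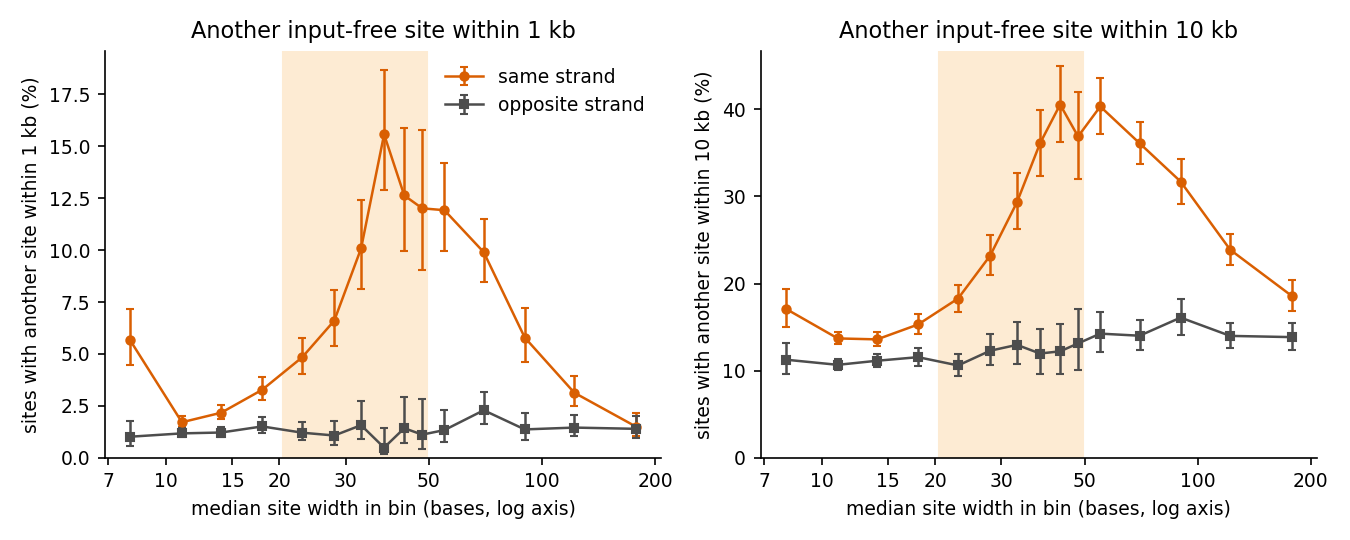
Percentage of input-free sites with another input-free site within 1 kb (left) and 10 kb (right) on the same strand (circles) or the opposite strand (squares), by width bin at its median width in bases (log axis), with 95% Wilson intervals and the range of 21 to 49 bases shaded. The same-strand share climbs through the shaded range to 15.6% within 1 kb at 36 to 40 bases and falls toward the widest sites. The opposite-strand share stays low within 1 kb and runs from 10.6% to 16.1% over the bins within 10 kb.

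The same order was then looked for in each deposited list, where the peaks of all widths were used whether or not they belonged to a site. Of the peaks of 21 to 49 bases, 15.4% and 19.1% of pull-down replicates 1 and 2 and 20.8% and 21.2% in input replicates 1 and 2 had another peak of their own list within 1 kb on the same strand. For wide peaks these shares were 10.2% and 13.1% in both pull-down lists and 16.5% and 17.6% in both input lists. For narrow peaks they were 5.63% and 6.69% in the 2 pull-down lists and 4.36% and 5.66% in the 2 input lists. Middle-width peaks stood above both other classes in 4 of 4 lists.

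The difference from narrow peaks was 13.5 ± 3.1 percentage points and that from wide peaks 4.77 ± 1.05 percentage points (SD, n = 4 lists). Against narrow peaks it was 9.8 and 12.4 in the pull-down lists and 16.5 and 15.5 in the input lists. These SDs, and those for opposite-strand partners below, thus hold differences between pull-down and input as well as between replicates. Input and pull-down were portions of a lysate, so the 4 lists may not be independent. An exact sign-flip permutation over lists, two-sided, gave p = 0.125 for either difference, which 4 lists cannot go below. At 10 kb the order of middle-width and wide peaks turned round in 4 of 4 lists, with a mean difference of -7.4 percentage points, and among the better-scoring 50% of each list the difference at 1 kb was -0.169 percentage points. The excess over the wide class thus held at 1 kb in whole lists and not at 10 kb or among the better-scoring peaks.

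**Figure D3:**
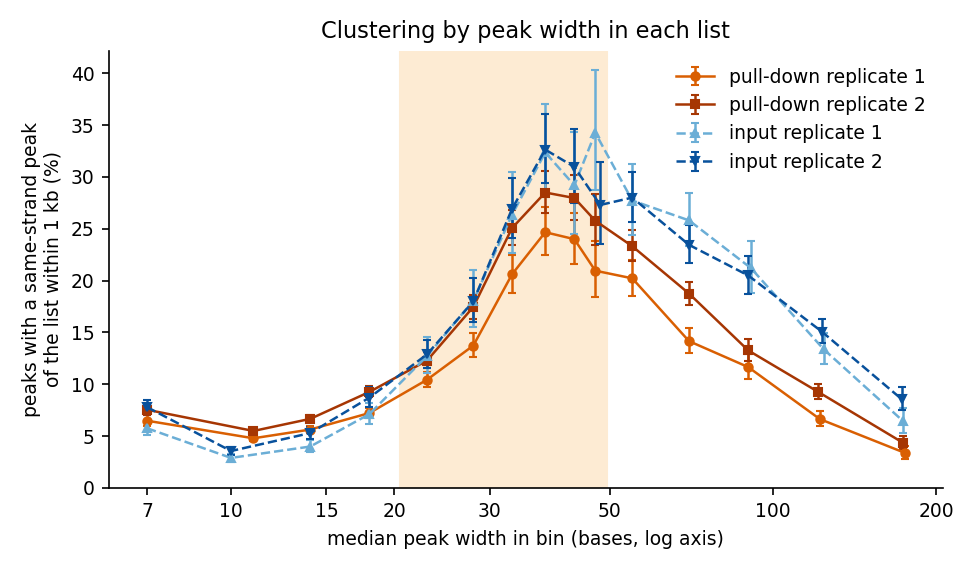
Percentage of peaks with a same-strand peak of the same list within 1 kb, by width bin at its median width in bases (log axis), in each pull-down (solid) and input (dashed), with 95% Wilson intervals and the range of 21 to 49 bases shaded. All 4 lists have their highest share inside the shaded range, at 24.7% and 28.5% for pull-down and 34.3% and 32.6% for input.

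In all 4 lists the width bin with the highest share lay inside the middle range. It was the bin of 36 to 40 bases in pull-down replicates 1 and 2 (24.7% and 28.5%) and in input replicate 2 (32.6%), and that of 46 to 49 bases in input replicate 1 (34.3% of 254 peaks). Clustering of middle-width peaks was therefore not particular to the pull-downs.

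Peaks outside the sites gave the same order. Of the peaks found in 1 pull-down alone and free of input peaks, 4959 in replicate 1 and 7964 in replicate 2 were of middle width. A same-strand peak of their list lay within 1 kb of 17.5% and 22.6% of them, against 9.69% and 13.1% of the wide and 6.19% and 7.44% of the narrow peaks found in 1 pull-down alone. Input peaks without a pull-down peak gave 35.8% and 35.9% for middle width, 18.1% and 19.8% for wide and 12.7% and 17.5% for narrow peaks.

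Opposite-strand partners within 50 bases, in the same list, were rare. Middle-width peaks had one in 0.357% and 0.384% of cases in pull-down lists, against 0.877% and 0.934% in input lists. Wide peaks had one in 0.372% and 0.476% of cases in pull-down lists, against 0.677% and 0.570% in input lists, and narrow peaks in 0.233% and 0.245%, against 0.312% and 0.477%. Middle-width peaks exceeded narrow peaks in 4 of 4 lists, by 0.321 ± 0.224 percentage points (SD, n = 4 lists, exact sign-flip permutation p = 0.125). Against wide peaks the difference was 0.114 ± 0.207 percentage points, positive in 2 of 4 lists (exact sign-flip permutation p = 0.5).

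Much of the short-range clustering lay in few places. Counted in windows of 100 kb on 1 strand, 67 windows held 10 or more input-free sites, and 550 middle-width sites (9.29%, 8.58 to 10.1) lay in them. The same windows held 7.48% of wide sites (6.91 to 8.09) and 0.999% of narrow sites (0.877 to 1.14). At the other end, 43.1% of middle-width, 39.9% of wide and 52.6% of narrow sites were the only input-free site of their window. Outside the 67 windows, 2.96% of middle-width, 2.58% of wide and 1.57% of narrow sites had a same-strand site within 1 kb. Within 10 kb these shares were 18.2%, 22.7% and 13.3%. Without the dense windows the excess over wide sites at 1 kb was small, and at 10 kb middle-width sites lay between the other classes. The windows were picked for holding many of these same sites. Leaving them out was thus bound to lower these shares, most for classes often found inside them. The smaller excess is therefore only a description.

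The window with the most middle-width sites, on the minus strand of chromosome 11 between 5400001 and 5500000, held 43 of them beside 16 wide and 22 narrow sites. Peaks of 21 to 49 bases numbered 63 and 70 there in pull-down lists, against 12 and 28 in input lists. Per 10000 listed peaks of that width the pull-down mean was 39.9 ± 3.6, against an input mean of 38.6 ± 8.1 (SD, n = 2 each), a difference smaller than the spread between replicates. In the window with the most middle-width sites, peaks of that width thus did not set pull-down apart from input once list length was considered.

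**Figure D4:**
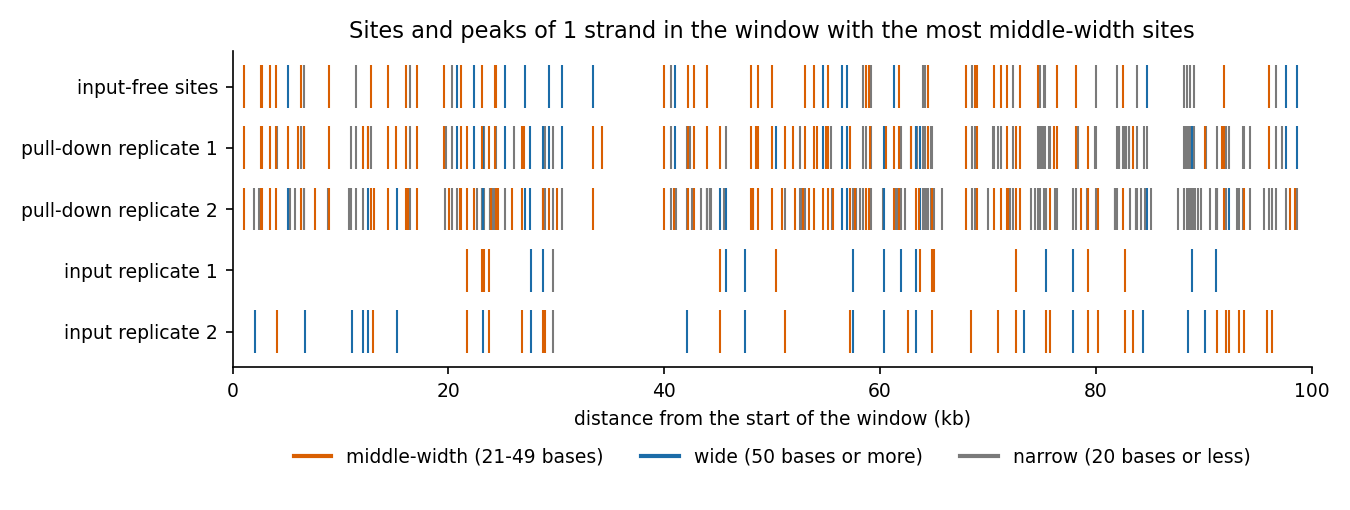
Positions, in kb from the start of the window, of input-free sites and of the peaks of each pull-down and input on the minus strand of the chromosome 11 window with 43 middle-width sites; each vertical line is a site or peak, coloured by width class. Middle-width sites lie along most of the window among wide and narrow ones, and the input lists also hold peaks there.

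The next windows differed from the inputs. On the plus strand of chromosome 2, the window between 220600001 and 220700000 held 31 middle-width sites of 53, with 57 and 62 pull-down peaks of 21 to 49 bases against 0 and 3 for input. The window of the same strand between 220900001 and 221000000 held 22 of 42, with 47 and 53 pull-down peaks against 1 and 0 for input. The chromosome 12 window, plus strand, between 66200001 and 66300000 held 26 middle-width sites of 58, with 65 and 59 pull-down peaks of that width against 1 and 9 input peaks. In these 3 windows both pull-downs had more such peaks per 10000 of their width than both inputs.

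The remaining windows of the 6 with the most sites did so too. On the minus strand of chromosome 9 between 21500001 and 21600000, 25 of 65 sites were of middle width, with 50 and 66 pull-down peaks of that width, against 4 and 16 for input. In the chromosome 10 window, plus strand, between 114700001 and 114800000, 20 of 28 sites were of middle width, or 71.4%, the highest part in the 6 windows. Its pull-down peaks of that width numbered 42 and 53, against 1 and 5 in the inputs. These windows were picked for input-free sites, which favours pull-down peaks, so no test was made on them.

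Sites linked by same-strand gaps of up to 1 kb formed chains. Of the middle-width sites 5442 stood alone, 275 were in chains of 2 and 204 (3.45%) in chains of 3 or more, against 1.74% of wide and 0.761% of narrow sites in chains of 3 or more. The longest chain of any kind had 22 sites. The longest of the chains with the most middle-width sites lay between 88962027 and 88968310 of chromosome 12, minus strand, with 5 middle-width, 2 wide and 4 narrow sites in 6284 bases. It held 18 and 15 pull-down peaks, against 0 and 1 for input. Between 5517303 and 5521443 of chromosome 11, minus strand, 5 middle-width and 5 narrow sites had 16 and 19 pull-down peaks, against 0 and 2 for input. Another chain with 5 middle-width sites, between 21542718 and 21545378 of chromosome 9, minus strand, had 9 and 10 pull-down peaks, against 2 and 4 for input. The other 2 of the 5 leading chains held 4 middle-width sites each, 1 on chromosome 2, plus strand (220575988 to 220577655), and 1 on chromosome 11, minus strand (5470590 to 5472977). All 5 chains mixed width classes.

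Clustered middle-width sites had low scores. Taking the lower of the 2 pull-down scores, 11.8% (10.6 to 13.1) of the 2764 sites scoring 10 to 14 had a same-strand site within 1 kb, against 6.11% (5.14 to 7.25) of 1997 at 15 to 24, 2.77% (1.89 to 4.02) of 940 at 25 to 49 and 2.27% (0.975 to 5.21) of 220 at 50 or more. Wide sites fell less with score, with 5.21%, 6.64%, 3.73% and 3.797% in the same ranges. Narrow sites had 2.95%, 1.90%, 1.39% and 3.35%. At scores of 25 to 49 the intervals of the middle-width class (1.89 to 4.02) and the wide class (2.58 to 5.37) overlapped. The clustering of middle-width sites at 1 kb thus lay mainly among their low-scoring members. Median widths of middle-width sites in the same score ranges were 29, 27, 26 and 27 bases. Score was not tested apart from width.

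The 5 middle-width sites with the best mean score rank lay between 2887 and 169934 bases from the nearest same-strand site. The best, on the plus strand of chromosome 7 (82573434 to 82573468), was 34 bases wide in pull-down replicate 1 and 32 in replicate 2, and scored 570 and 759. Its nearest same-strand input-free site was 79332 bases away and the nearest same-strand input peak 106031 bases away. The site on the minus strand of chromosome 12 (65192599 to 65192623) scored 367 and 403, with a same-strand site 35892 bases and an input peak 3078 bases away. The site on the minus strand of chromosome 2 (223526982 to 223527028) scored 407 and 351, with its next same-strand site at 2887 bases. Its 2 peaks differed in width, with 47 bases in replicate 1 and 28 in replicate 2. The site on the minus strand of chromosome 11 (71362503 to 71362530) scored 347 and 353 with a gap of 169934 bases. The last, on the plus strand of chromosome X (147455730 to 147455760), scored 320 and 361 with a gap of 9907 bases. None of the 5 had a same-strand site within 1 kb.

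Nearby input peaks were about as frequent for middle-width as for wide sites within 10 kb, and more frequent within 1 kb. The rule removed overlap with an input peak on the same strand but not closeness. Within 10 kb on the same strand, 28.0% of middle-width sites (26.9 to 29.2) had an input peak, against 29.3% of wide sites (28.4 to 30.4) and 15.99% of narrow sites (15.5 to 16.5). Within 1 kb the shares were 6.64% (6.03 to 7.30), 4.07% (3.66 to 4.54) and 2.43% (2.23 to 2.64). The order of the classes was that seen for neighbouring sites. An input peak on the opposite strand overlapped 7 middle-width, 8 wide and 6 narrow sites.

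The middle-width share, as a log2 ratio, lay nearer to the wide share on 15 of 24 nuclear chromosomes and nearer to the narrow share on 9. This tally counts differences of any size. On chromosomes 1, 2, 8, 9 and 11, among others, the wide and narrow shares both lay inside the Wilson interval of the middle-width share. Chromosome 17 held 262 middle-width sites, 4.42% (3.93 to 4.98) of the class, against 4.67% of wide and 2.72% of narrow sites. Chromosome 22 held 1.44% (1.16 to 1.77), against 1.51% of wide and 0.914% of narrow sites. Chromosome 19 held 2.69% (2.30 to 3.13) of middle-width, 2.37% of wide and 1.99% of narrow sites. Log2 ratios of middle-width over narrow shares were 0.70, 0.65 and 0.43 for these 3, the highest among nuclear chromosomes. They were -0.46 and -0.28 for chromosomes 13 and 4, the lowest apart from chromosome Y. Against wide shares the log2 ratios of the same 5 chromosomes were -0.08, -0.07, 0.18, -0.14 and -0.15.

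The 9 were chromosomes 2, 3, 8, 9, 11, 18, 20, X and Y. Chromosomes 18 and X held 2.42% (2.05 to 2.84) and 4.56% (4.06 to 5.12) of middle-width sites, with log2 ratios of 0.44 and 0.43 over the wide shares and -0.14 and -0.13 over the narrow shares. The mitochondrial genome, whose RNA is made outside the nucleus, held 1 middle-width, 0 wide and 1 narrow site.

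**Figure D5:**
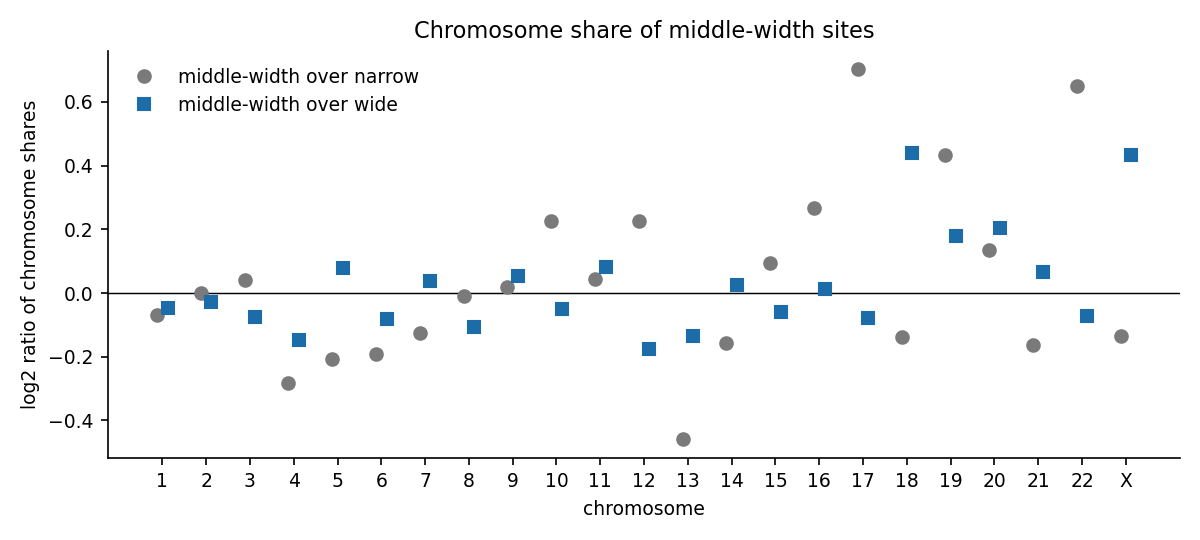
Log2 ratio of the share of middle-width sites on each chromosome over the share of narrow sites (circles) and over the share of wide sites (squares); chromosome Y and the mitochondrial genome, with few sites, are left out. Chromosomes 17 and 22 stand at 0.70 and 0.65 over the narrow share and near 0 over the wide share, while 18 and X stand at 0.44 and 0.43 over the wide share.

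Counts of sites in the 2897 regions of 1 Mb that held any input-free site are given as a description. Spearman's rho between classes was 0.343 for middle-width and wide sites, 0.121 for middle-width and narrow sites and 0.0714 for wide and narrow sites. Pearson's r was 0.635, 0.306 and 0.175. The classes share libraries and mappable sequence, and regions are not independent.

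To test location, input-free peaks of each pull-down were counted by width class in 1 Mb regions, whether or not they belonged to a site. The counts were scaled per 10000 peaks of the class and compared in limma with the library as a term. Middle-width and narrow peaks differed in 255 of 2515 regions at an adjusted p of 0.05 (10.1%), with a higher middle-width share in 174 (6.92%) and a lower one in 81 (3.22%). Middle-width and wide peaks differed in 134 (5.33%), with 72 higher (2.86%) and 62 lower (2.47%), and wide and narrow peaks in 776 (30.9%). With all pull-down peaks, input overlap included, the order turned: middle-width peaks differed from wide peaks in 435 of 2783 regions and from narrow peaks in 338, of which 127 were lower. In 5 Mb regions 64 of 591 were higher than narrow and 82 lower. Of the fits made, only that on all pull-down peaks had more calls against wide than against narrow peaks. With classes thinned to equal size, 112 of 675 regions were called against narrow and 16 against wide peaks. The direction of the calls depended on the peaks counted and the size of the regions. The pull-downs list many of the same sites, so these p-values measure how far the lists repeat and not the scatter of sites along the genome.

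The fit restricted to peaks found in 1 pull-down alone does not share sites between libraries. It called 97 of 887 regions for middle-width against narrow peaks (10.9%), 95 of them higher and 2 lower (0.225%). Against wide peaks it called 16 regions (1.8%), 10 higher and 6 lower (0.676%). For wide against narrow peaks it called 180 (20.3%), 166 higher (18.7%) and 14 lower (1.58%). The minimum of 5 peaks left a different set of regions here: the median log2 ratio of middle-width over narrow shares was 0.44 over the 887 regions, against -0.25 over the 2515 regions above. The small number of lower calls is therefore not read as a result.

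The 95 regions with a higher scaled share of middle-width than of narrow peaks, among peaks of 1 pull-down alone, made up 10.7% of regions tested. None of the sites entered that fit. These regions held 763 of the 2964 middle-width sites in tested regions, or 25.7% (24.2 to 27.4), 26.4% of wide sites (25.1 to 27.7) and 11.1% of narrow sites (10.4 to 11.9). Middle-width and wide sites were found in them at like rates, and narrow sites at close to the share of regions. More middle-width than narrow sites were to be expected there from how the regions were called, so these rates are only a description. The same limit holds for regions called against wide peaks. The 10 regions called higher for middle-width over wide peaks (1.13% of regions) held 10.4% of middle-width sites (9.38 to 11.6), 4.34% of wide sites and 2.76% of narrow sites.

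Of the 1 Mb regions called in the fit on all input-free peaks, the highest middle-width shares over narrow were on chromosomes 2 and 3. The region of chromosome 2 from 220000001 to 221000000 held 161 and 185 middle-width peaks in pull-down replicates 1 and 2 against 71 and 103 narrow peaks, although narrow peaks were far more numerous in all. Its log2 ratio of scaled shares was 3.12 (SE 0.37, limma adjusted p = 6.15e-06). The adjoining region from 221000001 held 31 and 51 middle-width against 18 and 23 narrow peaks, and reached 3.06 on the same log2 scale (SE 0.31, adjusted p = 1.9e-06 in limma). The region of chromosome 3 from 114000001 to 115000000 held 40 and 61 against 22 and 29, also with 3.06 (SE 0.32, limma adjusted p = 1.9e-06). The lowest ratios among called regions with a peak in every column were on chromosome 5 from 156000001 (1 and 3 middle-width against 31 and 38 narrow peaks, log2 ratio -1.82) and on chromosome 13 from 73000001 (2 and 1 against 30 and 27, log2 ratio -1.80). Their limma adjusted p-values were 0.0303 and 0.0204, and they rest on 3 or 4 middle-width peaks.

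Against wide peaks, the highest ratios among called regions with a peak in every column were on chromosome 20 from 52000001 (9 and 7 middle-width against 1 and 1 wide peaks, log2 ratio 2.83, SE 0.49), on chromosome 16 from 73000001 (5 and 7 against 1 and 1, log2 ratio 2.44, SE 0.50) and on chromosome 11 from 5000001 to 6000000. The last held 85 and 107 middle-width against 28 and 19 wide peaks, and its log2 ratio was 2.37 with an SE of 0.37 (adjusted p = 0.00174 in limma). That region spans the chromosome 11 window and chains described above. The lowest by the same limit were on chromosome 13 from 51000001 (3 and 2 against 17 and 24, log2 ratio -2.47), chromosome 3 from 187000001 (1 and 3 against 12 and 15, log2 ratio -2.26) and chromosome 3 from 99000001 (1 and 3 against 11 and 16, log2 ratio -2.25). Among these 6 regions only that of chromosome 11 had more than 20 peaks of both classes in the 2 pull-downs together.

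Peaks of 21 to 49 bases made up 16.1% ± 0.98 of the pull-down lists and 13.7% ± 1.8 of the input lists (SD, n = 2 each). Both pull-downs, at 15.5% and 16.8%, lay above both inputs, at 12.4% and 14.9%, by less than 1 percentage point at the nearest. The difference of 2.47 percentage points was 1.204 without input replicate 1 and 3.73 without input replicate 2, and 1.05 with width edges of 26 and 44 bases. By exact permutation, two-sided, p = 0.3333, which no comparison of 2 with 2 libraries can go below. Chromosome 19 held 3.27% ± 0.35 of the middle-width peaks of the pull-downs and 6.44% ± 0.28 of those of the inputs (SD, n = 2 each), also without overlap between groups and with an exact permutation p of 0.3333. This chromosome had been chosen because its share differed most between pull-down and input in these same whole lists. Its separation here is therefore not an independent result.

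Over 1 Mb regions, the share of middle-width peaks differed between pull-down and input in 133 of 657 regions tested in limma at an adjusted p of 0.05 (20.2%). It was higher in the pull-downs in 37 (5.63%) and lower in 96 (14.6%). Of 40 tested regions on chromosome 19, which had been chosen for its difference in this same contrast, 16 were lower and 0 higher. The highest log2 ratios among called regions with a peak in every list were 3.20 on chromosome X from 45000001 (40 and 56 pull-down peaks against 1 and 1 input peaks), 3.03 on chromosome 3 from 114000001 (45 and 66 against 1 and 2) and 2.78 on chromosome 12 from 66000001 (84 and 95 against 1 and 9). Their SEs were 0.42, 0.40 and 0.39 and their limma adjusted p-values 1.41e-11, 1.41e-11 and 1.41e-10. The lowest were -3.45 on chromosome X from 153000001 (2 and 9 pull-down peaks against 13 and 17 input peaks), -3.42 on chromosome 6 from 44000001 (1 and 5 against 7 and 10) and -3.20 on chromosome 12 from 125000001 (1 and 5 against 5 and 10). The count of calls was 60 without pull-down replicate 1, 59 without pull-down replicate 2 and 276 without input replicate 2. Without input replicate 2 the calls were even, with 139 higher and 137 lower, so the predominance of lower calls was not seen without that library. The sites were chosen with this same contrast, so nothing about them is read from these calls.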

How the data were processed

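CLIP-seq peak lists of 2 SAF-A pull-downs and 2 inputs of HCT116 cells were analysed. The authors deposited 1 BED list per sample, holding positions in bases, a strand and a score. The deposited score is a whole number of at least 10 with no stated meaning, and was used only to rank, filter or group. STAR, featureCounts and GRCh38 are named, without versions, per the submitters' processing notes. Neither a peak caller nor its cutoff is named in the labels or headers used here. Read depth is unknown, so a longer list can reflect deeper sequencing.

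Positions past chromosome ends were counted with lengths taken from general knowledge. Overlaps, gaps and merges were computed in Python 3.11.15 (pandas 2.3.3, numpy 2.4.6) and checked against direct enumeration on simulated peaks. Shares carry 95% Wilson intervals. Regions of 1 Mb averaging 5 or more peaks were fitted in limma 3.58.1 (R 4.3.3; lmFit, eBayes with trend) on log2 of peaks per 10000, with 0.5 added to each count and Benjamini-Hochberg adjustment, and the fit was tested on simulated data. Single values were compared over libraries by exact permutation tests. Named items were the 5 sites with the best mean score rank, the 6 windows and 5 chains with the most middle-width sites, and up to 3 regions at either end of each comparison. The members, classes and rules were chosen with earlier results of these data known. The division at 35 bases, the score ranges and the removal of dense windows were chosen after seeing the data.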

Additional observations from a re-analysis of the deposited data

Results flagged for a closer look

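The share of middle-width peaks with an opposite-strand partner within 50 bases ran opposite ways against wide peaks in the 2 kinds of library. It was below the wide share in both pull-downs, by a mean difference of -0.0534 percentage points (-0.0149 and -0.0920), and above it in both inputs, by 0.282 percentage points (0.200 and 0.364). With 2 against 2 libraries the exact permutation p of this difference was 0.3333, the smallest possible. It rests on 53 and 72 middle-width and 58 and 102 wide peaks with a partner in the pull-downs, and on 32 and 59 middle-width and 44 and 64 wide peaks in the inputs. In every list the 95% Wilson intervals of both classes overlapped. In pull-down replicate 1 they were 0.273% to 0.467% for middle-width and 0.288% to 0.480% for wide peaks. The direction within a list is therefore not settled by these counts.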

How the results depend on the processing

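Of 102 alternatives computed, 70 were counted as unchanged, which did not require both direction and size to be kept. Among the 70 was centring for middle-width against wide peaks, where 72 higher and 62 lower calls became 47 and 69. Also among them was the same-strand difference from narrow peaks at 1 kb, which fell from 13.53 to 5.007 percentage points in the better-scoring 50%. The count of 70 therefore overstates how stable the results were. The excess of middle-width over wide peaks in same-strand neighbours, 4.77 percentage points at 1 kb, was -7.4 at 10 kb and -0.169 in the better-scoring 50%. The count of middle-width sites, 5921, was 3428 in the better-scoring 50% and 2251 where both contributing peaks had 21 to 49 bases. In the better-scoring 50%, 1.14% had a same-strand site within 1 kb and 8.46% within 10 kb, 5.92% an opposite-strand site within 10 kb, and 2.10% lay on chromosome 19. With both peaks of 21 to 49 bases these were 11.6%, 34.3% and 10.9%, and with an overlap of 50% of both peaks 7.25%, 24.3% and 8.715%. Outside windows of 10 or more sites the same-strand shares were 2.96% and 18.2%. Region calls of middle-width against narrow peaks, 255 of 2515 tested regions, were 146 of 591 in 5 Mb regions (64 higher). They were 50 of 901 in the better-scoring 50%, 112 of 675 with thinned classes and 97 of 887 with peaks of 1 pull-down only. With a minimum mean of 10 peaks 207 of 776 were called, 202 of them higher. With centring on the median region 286 of 2515 were called, 218 of them higher. Against wide peaks, 134 of 2515 became 65 of 591 in 5 Mb regions. With all pull-down peaks they became 435 of 2783 (281 higher, against 338 calls over narrow peaks). The calls were 32 of 901 in the better-scoring 50% (6 higher), 16 of 675 with thinned classes and 16 of 887 with peaks of 1 pull-down only. At a minimum of 10 peaks they were 66 of 776 (22 higher), and with centring 116 of 2515 (47 higher). For pull-down against input, 133 became 65 in 5 Mb regions, 22 in the better-scoring 50% and 68 at a minimum of 10 peaks, and 59 to 276 with 1 library left out. Stricter settings and larger regions left fewer regions to test, so a smaller count of calls could be a larger share of them. The cause of other shifts was not tested. No pairing of the libraries by replicate number was seen (r = 0.0686 between same-numbered deviations over 657 regions). With 2 libraries per group this cannot show that they were not paired. With the replicate number as a block 119 of 657 regions were called. The differences in list share and in chromosome 19 share stayed at 2.47 and -3.17 percentage points. Leaving out 1 pull-down from the comparison of width classes leaves no residual degrees of freedom, so it was not run. List length limits every share of peaks with a neighbour.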
